A study of Mus musculus with 9 samples.

Results

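Cells sorted as the basal layer of the hair bulb (basal HB) were compared with cells sorted as outer root sheath (ORS) from growing mouse hair follicles. The comparison uses 4 of the study's 9 libraries, namely the 2 labelled basal HB and the 2 labelled ORS, chosen by their labels and not by any measured value. The other 5 libraries, 3 of hair follicle stem cells (HFSC) and 2 of suprabasal bulb cells (suprabasal HB), shared the model fit and are otherwise cited only to place a value. Each label gives 30-day-old mice (P30), dorsal skin and anagen VI, when the hair shaft is being made. All 4 populations carry the strain label Lhx2-GFP (CD1), but the protocol text speaks of K14-H2BGFP animals, and which transgene gave the GFP signal of the sort is not settled. Sex is labelled "Mixed" for every library. Cells were separated on GFP together with surface P-cadherin, Sca-1, CD34 and the integrins α6 and β1, and the gates and the number of mice per sample are not given in the sources used here. Nothing states that replicates came from separate animals, so p-values measure only the spread between these samples, which may be technical.

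The outer root sheath is the outermost epithelial layer of the follicle and runs from the bulge, where stem cells reside, down to the bulb. In the bulb, dividing basal cells lie against the dermal papilla, a cluster of mesenchymal cells that sends growth signals, and their daughters move upward to form the hair shaft, with its central medulla, and the inner root sheath. WNT, BMP, hedgehog and FGF signals pass in both directions across this border, and pigment cells seated among the bulb cells hand their pigment to the shaft.

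The 4 libraries held 60990600 to 88596741 expected counts, and 3 counts, below which a level cannot be told from 0, were worth 0.0335 to 0.0446 counts per 1e6 (CPM). Log2 levels correlated at 0.997 between the basal HB libraries and 0.991 between the ORS libraries (Pearson, across genes, which are not independent replicates). ORS replicate 1 was nearer to basal HB than ORS replicate 2 was for 72.3% of the genes called higher in basal HB and for 62.9% of those called lower. Xist, an RNA of the inactive X chromosome, stood at 1.11 and 1459 CPM in the ORS libraries and at 359.5 and 298.4 CPM in basal HB, and the Y-linked gene Ddx3y stood at 93.05, 51.72, 70.27 and 71.21 CPM in the same order. Mean Xist and Ddx3y were 1304 and 0.0121 CPM in HFSC and 1.139 and 90.97 CPM in suprabasal HB. The label "Mixed" is therefore not borne out by these 2 genes in ORS replicate 1, HFSC or suprabasal HB. The part that the sex of the animals has in any result was not tested. Of the sort markers, Cd34 and Cdh3 (P-cadherin) were lower in basal HB by 1.92-fold and 1.4-fold (both calls were lost without basal HB replicate 1, and that of Cdh3 also in most other alternatives), and Itga6, Itgb1 and Ly6a (Sca-1) were not called. Of the 67 genes named by rule, 13 have an exon that overlaps an exon on the other strand (Zic4, Prdm16, Foxq1, Nr2f1, Foxe1, Sox5, Pou3f1, Hhip, Tnc, Plin4, Nos1, Stac and Slc22a3), and their values are uncertain because the strand used for counting is not given in the sources used here. Dsg1a is uncertain because near-identical copies of it exist.

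Across 20491 genes tested with edgeR at a Benjamini-Hochberg adjusted p under 0.05, 3241 were higher in basal HB (15.8%) and 3004 were lower (14.7%). The changes were not alike in size, since 2254 of the higher genes but 945 of the lower genes differed by at least 2-fold. The median log2 change of all genes was -0.04. The gene lists used below were chosen with earlier results of these data known. Their shares, set beside those of all genes, are therefore descriptions and not tests. Without basal HB replicate 1 the counts were 2095 and 1330, and the count of lower genes was 1823 without basal HB replicate 2 and 1940 without ORS replicate 2.

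Wnt3, a WNT ligand expressed in the bulb epithelium, and Dkk2, a secreted modulator of WNT signalling, marked the basal HB side. Wnt3 (mm10, chromosome 11, 103774150 to 103817957) stood at 8.50 and 3.17 CPM in ORS and at 98.4 and 102.1 CPM in basal HB, a log2 change of 4.11 (SE 0.41, edgeR adjusted p = 0.00022). Dkk2 (chromosome 3, 132085292 to 132180304) stood at 0.354 and 0.682 CPM in ORS and at 43.33 and 46.52 CPM in basal HB. Its mean was 0.969 CPM in HFSC and 0.517 CPM in suprabasal HB, so among the 4 populations its level was high in basal HB alone. Lhx2, a LIM homeobox factor of follicle stem cells, and Lgr6, a receptor for R-spondins, marked the ORS side. Lhx2 (chromosome 2, 38339281 to 38369733) stood at 2961 and 3383 CPM in ORS and at 354.4 and 479.9 CPM in basal HB, 7.60-fold lower, and because the strain label names Lhx2 the sort itself may bear on this gene. Lgr6 (chromosome 1, 134983301 to 135105276) stood at 127.5 and 209.7 CPM against 26.7 and 29.83 CPM. These 4 genes were given with the comparison. For all 4 the libraries of the populations did not overlap, which with 2 libraries per population also occurs in genes not called.

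**Figure D1:**
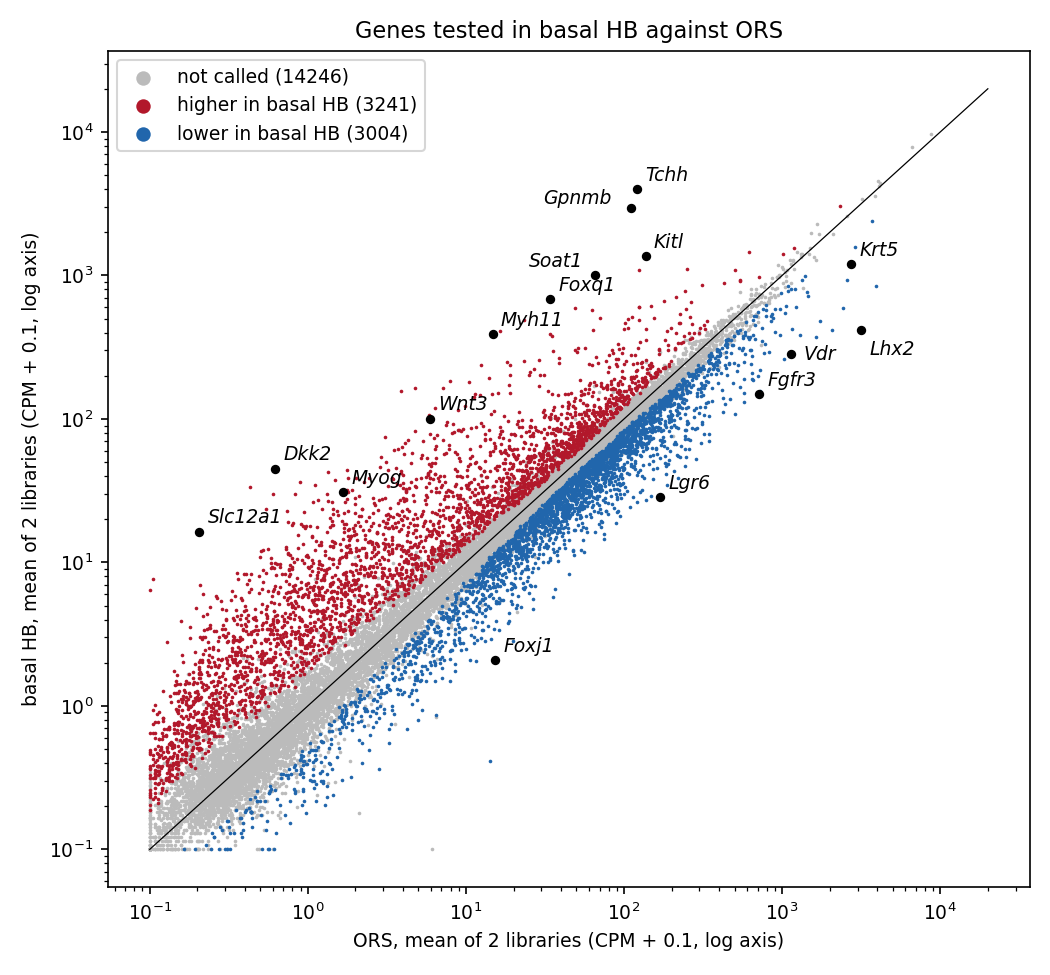
Mean level of each of the 20491 genes tested in ORS (horizontal) and basal HB (vertical), both in CPM + 0.1 on log axes, with genes called higher in basal HB in red, lower in blue and not called in grey, named genes as larger black points and the line of equal level in black. The red genes reach farther from the line than the blue ones, with Slc12a1, Dkk2, Wnt3, Tchh and Gpnmb above it and Foxj1, Lgr6 and Lhx2 below it.

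The transcription factors showed 177 of 506 tested higher in basal HB (35.0%) and 109 lower (21.5%), against 15.8% and 14.7% of all genes. Foxq1, a forkhead factor required for the medulla of the hair shaft (chromosome 13, 31556134 to 31560976), stood at 42.75 and 25.55 CPM in ORS and at 649.4 and 719.4 CPM in basal HB, a log2 change of 4.33 (SE 0.36, edgeR adjusted p = 0.00012). It was also far above its mean in suprabasal HB, 143.1 CPM. Prdm1, the repressor Blimp1, rose from 25.65 and 10.45 CPM to 252.8 and 245.2 CPM. Hoxc13, a homeobox factor that drives hair keratin genes, stood at 104.7 and 118.5 CPM in ORS and at 496.5 and 532.6 CPM in basal HB, 4.61-fold higher. Of the 177 risen factors, 53 reached at least 50 CPM in basal HB, among them Fosl2 (an AP-1 subunit, 4.89-fold), Smad7 (an inhibitor of TGF-beta and BMP signalling, 3.87-fold), Gli3 (a hedgehog effector, 3.93-fold), Grhl1 (a grainyhead factor of epithelia, 3.47-fold) and Foxp1 (2.71-fold).

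The factors with the largest folds were mostly of low level. In 84 of the 177 risen factors the ORS mean was under 2 CPM. Zic4, a zinc finger factor, stood at 0.192 and 0.0447 CPM in ORS and at 7.06 and 4.76 CPM in basal HB, and Prdm16, Tcf15, Sox6 and Nr2f1 had log2 changes of 4.61, 4.10, 3.98 and 3.95. Sox6 was higher still in suprabasal HB, at 16.77 CPM. Myf5 and Myog, factors of skeletal muscle, were among the 8 largest changes and are described with the muscle genes below. Several others are known from mesenchyme, and in bulk libraries more cells of a type and more RNA per cell cannot be told apart. They include Prrx1, Twist1, Tbx2, Ebf1, Ebf2 and Zic1, with log2 changes between 3.29 (Ebf1) and 3.83 (Tbx2). The summed level of 20 dermal papilla genes moved with them, from 204.5 to 296.2 CPM in ORS to 662.2 to 880.8 CPM in basal HB, and its part in these changes was not tested.

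The factors that fell had smaller folds and higher levels. Among the 109 (63 without basal HB replicate 1), 59 stood at or above 50 CPM in ORS and 9 fell by at least 4-fold. Foxe1, a forkhead factor of follicle epithelium, stood at 236.4 and 330.1 CPM in ORS and at 39.69 and 64.99 CPM in basal HB, a log2 change of -2.44 (SE 0.26, edgeR adjusted p = 0.00029). Foxj1, known from motile cilia, fell from 10.78 and 19.68 CPM to 1.21 and 2.77 CPM. Creb5, Sox5 and Pou3f1 fell by 2.43, 2.38 and 2.33 on the log2 scale, and the tendon factors Scx and Mkx by 2.21 and 2.08. Vdr, the vitamin D receptor, which maintains the hair cycle, was among the most abundant of the fallen factors, at 935.7 and 1331 CPM against 226.7 and 342.2 CPM. Cux1 and Nfib, also abundant, fell by 3.38-fold and 3.27-fold. The libraries of the populations do not overlap for any of these genes, which for those with the largest changes the rule for naming them requires. Such separation also occurs in genes not called.

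**Figure D2:**
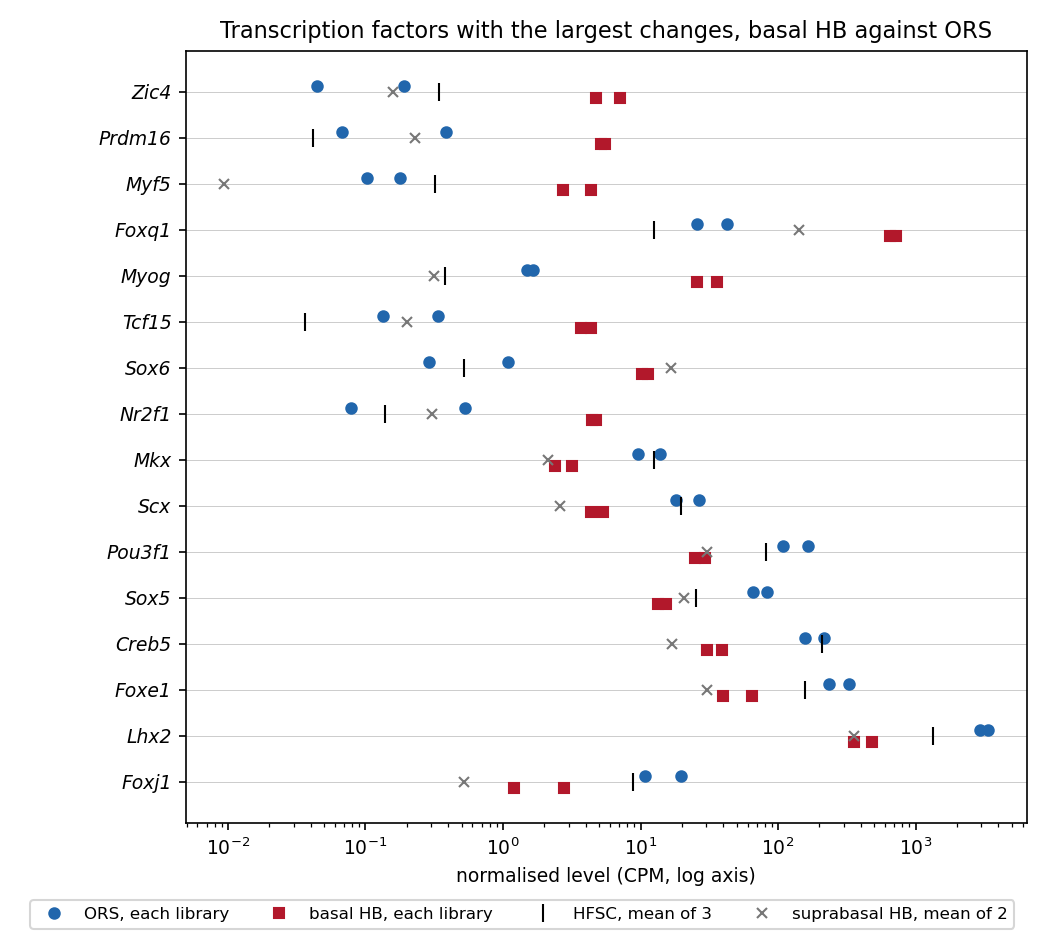
Level in CPM on a log axis of the 16 transcription factors with the largest changes, with blue circles for the 2 ORS libraries, red squares for the 2 basal HB libraries, black ticks for the mean of 3 HFSC libraries and grey crosses for the mean of 2 suprabasal HB libraries. The 8 upper genes are higher in both basal HB libraries, from Zic4 to Nr2f1, and the 8 lower genes, from Mkx to Foxj1, are lower in both.

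By family, the 4 factors that bind DNA for the WNT pathway divided into pairs. Lef1 and Tcf7 rose, by 3.33-fold and 2.02-fold, and Tcf7l1 and Tcf7l2, the first known as a repressor in follicle stem cells, each fell by 1.35 on the log2 scale, Tcf7l1 with an edgeR adjusted p of 0.0509 without basal HB replicate 1. Of 33 HOX and caudal genes, 8 were higher and 13 lower, with a median log2 change of -0.41. Hoxc13 apart, the genes that rose reached no more than 2.70 CPM in basal HB, whereas those that fell stood at 3.57 to 51.6 CPM in ORS. MYC, MXD and E2F genes, which act in growth and the cell cycle, had 12 of 23 lower (52.2%) and 3 higher, with a median of -0.30. The higher share, 13%, was near the 15.8% of all genes. The 3 that rose, Mxi1, Mxd4 and Mxd1, are MYC antagonists, and Mycl fell by 1.81 on the log2 scale. Nuclear receptors had 17 of 38 higher (44.7%), such as Nr2f2, Rora and Rarb, and 6 lower (15.8%), such as Vdr and Thrb. Their lower share was near the 14.7% of all genes. Without basal HB replicate 1 the fallen HOX genes numbered 8, the fallen MYC, MXD and E2F genes 7 and the fallen nuclear receptors 3, and without ORS replicate 2 the risen HOX genes numbered 5.

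The secreted signals showed 108 of 296 tested higher in basal HB (36.5%) and 45 lower (15.2%), against 15.8% and 14.7% of all genes, so the lower share was near that of all genes. The lower count was 22 without basal HB replicate 1 and 29 without ORS replicate 2. Bmp2, a BMP ligand, stood at 15.25 and 6.89 CPM in ORS and at 140.9 and 143.2 CPM in basal HB, a log2 change of 3.69 (SE 0.32, edgeR adjusted p = 0.00015). Kitl, the ligand that keeps pigment cells in skin alive, stood at 203.4 and 70.46 CPM in ORS and at 1410 and 1317 CPM in basal HB, 9.96-fold higher. Igfbp5, an IGF-binding protein, rose from 172.2 and 122.8 CPM to 613.5 and 618.8 CPM. These 3 genes were abundant in basal HB, but 67 of the 108 risen signals had an ORS mean under 2 CPM. Masp1, a protease of the lectin complement pathway, and Coch, known from the inner ear, stood below 0.6 CPM in both ORS libraries and between 22.2 and 30.77 CPM in basal HB. Hhip, a hedgehog antagonist, Inhba, the activin A subunit, and Sparcl1, a matricellular protein, had log2 changes of 4.78, 4.68 and 4.40. In 88 of the 108 genes the mean in suprabasal HB lay below that in basal HB.

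The genes that tune WNT outside the cell were mostly on the basal HB side. Of 19 secreted agonists and antagonists tested, 15 were higher, with a median log2 change of 3.0 against -0.04 for all genes. None was lower by edgeR, and none had an unadjusted p under 0.05 in that direction or was lower by DESeq2 or limma. Rspo4, an R-spondin (chromosome 2, 151842927 to 151874668), stood at 0.93 and 0.525 CPM in ORS and at 27.88 and 31.78 CPM in basal HB, a log2 change of 5.37 (SE 0.39, edgeR adjusted p = 8.7e-05). The antagonists Notum, Wif1, Apcdd1 and Sostdc1 rose by 3.41, 2.57, 1.84 and 3.51 on the log2 scale, so agonists and antagonists rose side by side. Rspo1, Rspo2, Rspo3, Ndp and Wif1 are also genes of the dermal papilla, whose summed markers rose with them.

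Among 15 WNT ligands 7 were higher, of which Wnt4, Wnt5a and Wnt3 exceeded 98 CPM in both basal HB libraries. Wnt4 stood at 106.4 and 99.82 CPM in ORS and at 237.6 and 265.7 CPM in basal HB. Wnt10a and Wnt7b rose by 2.07-fold and 5.09-fold, and Wnt9a fell by 2.77-fold. On the receiving side more genes were lower than higher, at 45.5% and 18.2% of those tested, against 14.7% and 15.8% of all genes. Of 33 WNT receptors and feedback genes 15 were lower, 6 higher and 12 not called, with a median of -0.15, and without basal HB replicate 1 the 15 became 10. The receptors Lgr5, Lgr6 and Lgr4, which bind R-spondins, and Fzd1, Fzd5 and Fzd4, which bind WNTs, were all lower. Lgr5 stood at 265.4 and 421.8 CPM in ORS and at 63.07 and 93.92 CPM in basal HB, and Fzd1 at 578.1 and 830.4 CPM against 173.1 and 225.9 CPM. The feedback genes Axin2, Nkd1 and Nkd2, which are known targets and inhibitors of WNT signalling, were higher, Axin2 at 46.48 and 33.9 CPM in ORS and 126.8 and 119.9 CPM in basal HB. Bambi, a pseudoreceptor of TGF-beta and BMP signals, rose by 8.38-fold.

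The BMP and FGF ligands also had more members higher than lower. Among 17 BMP and GDF ligands 8 were higher (4 without basal HB replicate 1) and 1, Bmp6, was lower, a call lost without basal HB replicate 1. Bmp4 stood at 15.2 and 4.88 CPM in ORS and at 36.4 and 30.7 CPM in basal HB. Secreted BMP and activin antagonists had 7 of 14 higher, such as Chrdl2 and Chrdl1, and the more abundant Twsg1 and Crim1 lower (1 of them without basal HB replicate 1). Of 16 FGF ligands and binding proteins 9 were higher, all below 20 CPM in basal HB, among them Fgf7 and Fgf10, known from dermal cells. The 2 that fell had been abundant in ORS. Fgf5, the signal that ends hair growth (chromosome 5, 98254184 to 98277030), stood at 146 and 267.5 CPM in ORS and at 32.93 and 53.78 CPM in basal HB, a log2 change of -2.25 (SE 0.40, edgeR adjusted p = 0.0031). Fgfbp1, which carries FGFs in the matrix, fell from 85.6 and 56.95 CPM to 15.87 and 19.17 CPM.

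The other fallen signals came from many families, among them 6 matricellular proteins (2 without basal HB replicate 1 and 3 without ORS replicate 2) and 12 guidance molecules. Smoc2, a matricellular protein, stood at 170.6 and 197.7 CPM in ORS and at 36.27 and 46 CPM in basal HB. The guidance molecules Sema3c, Sema3e and Ntn1 fell by 2.02, 1.97 and 2.02 on the log2 scale. Tnc, the matrix protein tenascin C, stood at 226.4 and 410.5 CPM against 60.34 and 97.23 CPM, a log2 change of -2.02 (edgeR adjusted p = 0.0056, and 0.058 without basal HB replicate 1). Thbs1 and Slit3, both above 260 CPM in ORS, fell by 2.83-fold and 3.77-fold. Over all semaphorins, netrins, slits and ephrins, the 12 lower of 39 tested (7 without basal HB replicate 1) stood beside 12 higher. Of 26 chemokines 2 were higher (7.69%) and 3 lower (11.5%), against 15.8% and 14.7% of all genes. All these calls depended on basal HB replicate 1. Of 19 interleukins 5 were higher (26.3%, and 2 without ORS replicate 2 or either basal HB library) and 1 lower, Il1f5 (the antagonist IL-36Ra).

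**Figure D3:**
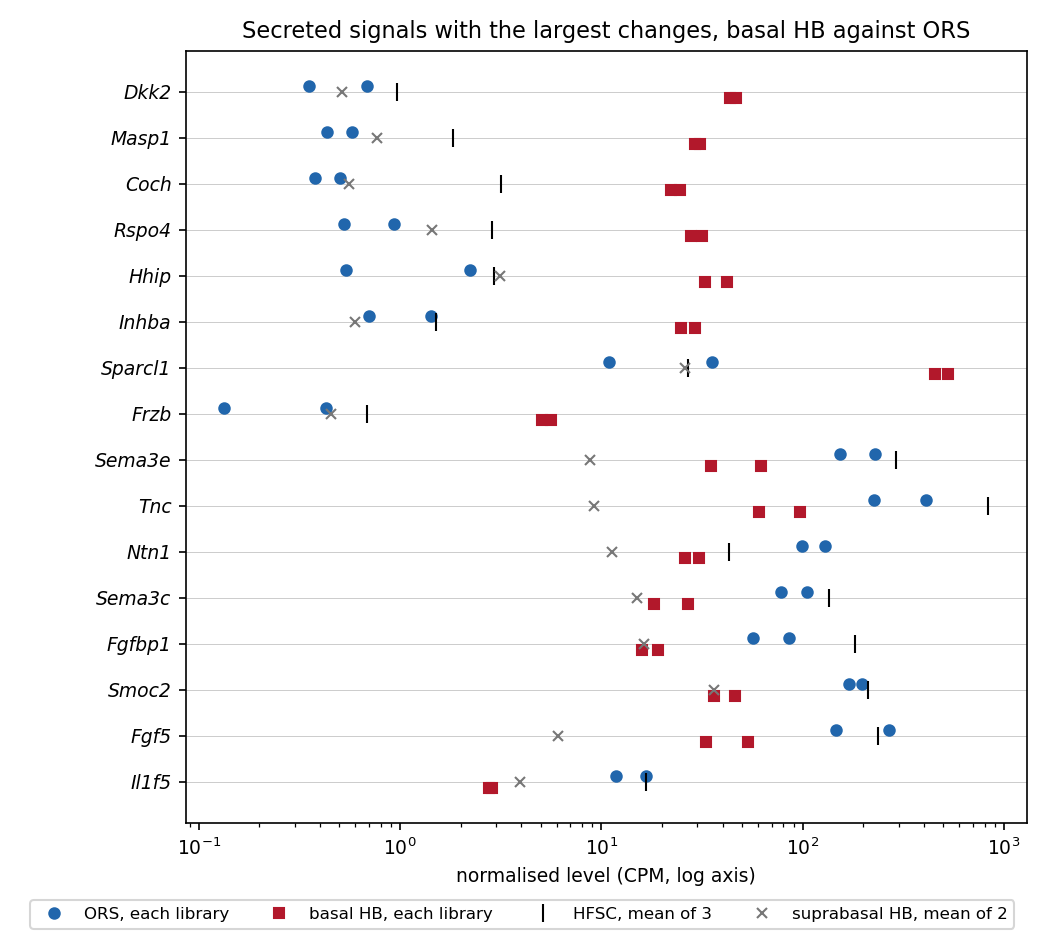
Level in CPM on a log axis of secreted signals in the 2 ORS libraries (blue circles) and 2 basal HB libraries (red squares), with black ticks for the HFSC mean of 3 libraries and grey crosses for the suprabasal HB mean of 2. Dkk2 moves from under 1 CPM to 43.33 and 46.52 CPM and Fgf5 from 146 and 267.5 CPM to 32.93 and 53.78 CPM.

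The metabolic genes showed 136 of 557 tested higher in basal HB (24.4%) and 119 lower (21.4%), against 15.8% and 14.7% of all genes. Without basal HB replicate 1 the lower count was 65. Among the risen genes those of lipid handling stood out by size. Soat1, which esterifies cholesterol for storage (chromosome 1, 156424525 to 156474331), stood at 74.5 and 56.87 CPM in ORS and at 1004 and 1014 CPM in basal HB, a log2 change of 3.94 (SE 0.17, edgeR adjusted p = 1.8e-05). Its mean was 86.4 CPM in HFSC and 103.1 CPM in suprabasal HB, so of the 4 populations basal HB alone had the high level. Stra6, the membrane receptor for retinol-binding protein, stood at 50.31 and 47.68 CPM in ORS and at 547.2 and 630.5 CPM in basal HB. Ass1, argininosuccinate synthase of arginine synthesis, rose from 43.94 and 24.15 CPM to 371.9 and 412 CPM. Plin4, a lipid droplet coat protein, Pygm, the glycogen phosphorylase of muscle, and Nos1, neuronal nitric oxide synthase, also passed the rule with lower levels, with log2 changes of 4.86, 3.61 and 3.34.

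Cholesterol synthesis rose along the pathway. Of its 25 genes 18 were higher, with a median log2 change of 1.01, and none was lower by edgeR, where the count in that direction is also 0 at an unadjusted p under 0.05. Hmgcs1, an early enzyme of the pathway, stood at 273.5 and 153.5 CPM in ORS and at 723.8 and 702.4 CPM in basal HB, a log2 change of 1.74 (SE 0.27, edgeR adjusted p = 0.0015). Mvd, Msmo1, Nsdhl and Lss, later enzymes, rose by 2.39-fold to 3.06-fold. Insig1, Idi1, Ebp, Scap and Dhcr7 were among the genes not called. Srebf2, the factor that drives this pathway, stood at 233.7 and 192.7 CPM in ORS and at 404.2 and 390.9 CPM in basal HB. The level in ORS replicate 1 lay above that in ORS replicate 2 for 24 of the 25 genes, and without basal HB replicate 1 the count of risen genes was 11.

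The sterol regulatory element, the site at which the Srebf2 product binds, was looked for as TCACCCCAC on both strands in the 250 bases before the start site in RefSeq promoters of GRCm38.p6. It lay in 0.496% of 32851 promoters. Counting a gene if any of its promoters matched, which is another unit, the element lay in 1 of the 17 cholesterol genes that have one, Hmgcs1. Its stretch at chr13:119690164-119690272, on the plus strand, is shown because Hmgcs1 was the only one of these genes with a match. The element is in capitals and ends 129 bases before the start site. A match is a description of the letters and says nothing of binding in these cells.
Hmgcs1: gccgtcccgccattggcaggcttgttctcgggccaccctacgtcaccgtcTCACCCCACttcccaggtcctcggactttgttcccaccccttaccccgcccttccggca

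Genes of lipid storage and of retinoid handling are given next. Of 33 glycerolipid and lipid droplet genes 17 were higher and 2 lower, with a median log2 change of 0.73. Dgat2, which makes triglyceride, stood at 5.73 and 5.53 CPM in ORS and at 37.93 and 44.01 CPM in basal HB, and Plin2, the general lipid droplet coat, at 26.63 and 33.02 CPM against 76.09 and 86.04 CPM. Fabp4, a fatty acid carrier of fat and capillary cells, rose by 10.8-fold to 326.1 and 428.8 CPM, and the adipocyte markers that moved with it are given below. Among 19 retinoid genes 11 were not called and 7 were higher, with a median of 0.21, such as Rdh10 and Rdh12, and 1 lower, Dhrs9. Aldh1a3, which makes retinoic acid, stood at 112.7 and 28.11 CPM in ORS and at 501.2 and 513.8 CPM in basal HB. Glycolysis had 11 of 33 genes higher and 4 lower (1 without ORS replicate 2 or either basal HB library), mostly by less than 2-fold, such as Aldoa, Hk2 and Eno1, with Ldha, Pkm and Gapdh not called.

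Nucleotide and one-carbon genes went the other way. Of 32 nucleotide synthesis genes 20 were lower, with a median log2 change of -0.49. No gene was higher by edgeR, 1 had an unadjusted p under 0.05 in that direction, and DESeq2 and limma each called 1. Rrm2, the regulated subunit of ribonucleotide reductase, stood at 225.6 and 226.9 CPM in ORS and at 119.6 and 123 CPM in basal HB, a log2 change of -0.90 (SE 0.08, edgeR adjusted p = 0.00017). Tyms, which makes thymidylate, and Ppat, the first enzyme of purine synthesis, fell by 1.79-fold and 2.25-fold. Of 26 serine, glycine and one-carbon genes 15 were lower and 1 higher, with a median of -0.63. Mat2a, which makes the methyl donor S-adenosylmethionine, fell from 452.1 and 443.7 CPM to 188 and 216.1 CPM. The proliferation genes Mki67 and Top2a moved with these lists, falling by 0.92 and 0.80 on the log2 scale (edgeR adjusted p = 0.0038 and 0.0017), and their part in the metabolic changes was not tested. Without basal HB replicate 1 the counts of fallen genes were 14 for nucleotide synthesis and 8 for the one-carbon list.

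The largest falls among single metabolic genes were spread over pathways. Cbs, which turns homocysteine toward cysteine, stood at 208 and 283.4 CPM in ORS and at 45.28 and 63.86 CPM in basal HB, a log2 change of -2.17. Acer3, an alkaline ceramidase, fell from 315.1 and 371.7 CPM to 58.1 and 81.1 CPM, and Slc38a4, an amino acid transporter, from 80.1 and 137.4 CPM to 18 and 30.7 CPM. The rule that named these 3 requires that their libraries do not overlap. Cps1, carbamoyl phosphate synthetase, had the largest log2 change of the fallen metabolic genes, -2.66, but with an SE of 0.86 and an edgeR adjusted p of 0.045, and its call was lost under 10 of the alternatives, with adjusted p between 0.052 and 0.23. In arginine and polyamine metabolism Odc1 and Sat1 rose, from 336 and 152 CPM to 734 and 833 CPM for Odc1, while Amd1 fell.

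Few nuclear genes of mitochondrial respiration were called, and respiration itself was not measured. Of 73 nuclear genes of oxidative phosphorylation, 1 was lower, Atp5g1, at 83.2 and 82.4 CPM in ORS and 44.1 and 51.1 CPM in basal HB. No gene was higher by edgeR, 1 had an unadjusted p under 0.05 in that direction, and DESeq2 and limma each called 1. The median was -0.14. Within ORS, replicate 1 lay above replicate 2 for 71 of the 73 genes, so the spread between the ORS libraries is one-sided for this list. The TCA cycle had 1 of 29 genes higher and 4 lower, which became 0 and 1 without basal HB replicate 1, while without either ORS library 2 were lower. Fatty acid oxidation had 9 of 39 higher and 15 lower, and without basal HB replicate 1 these were 5 and 4.

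**Figure D4:**
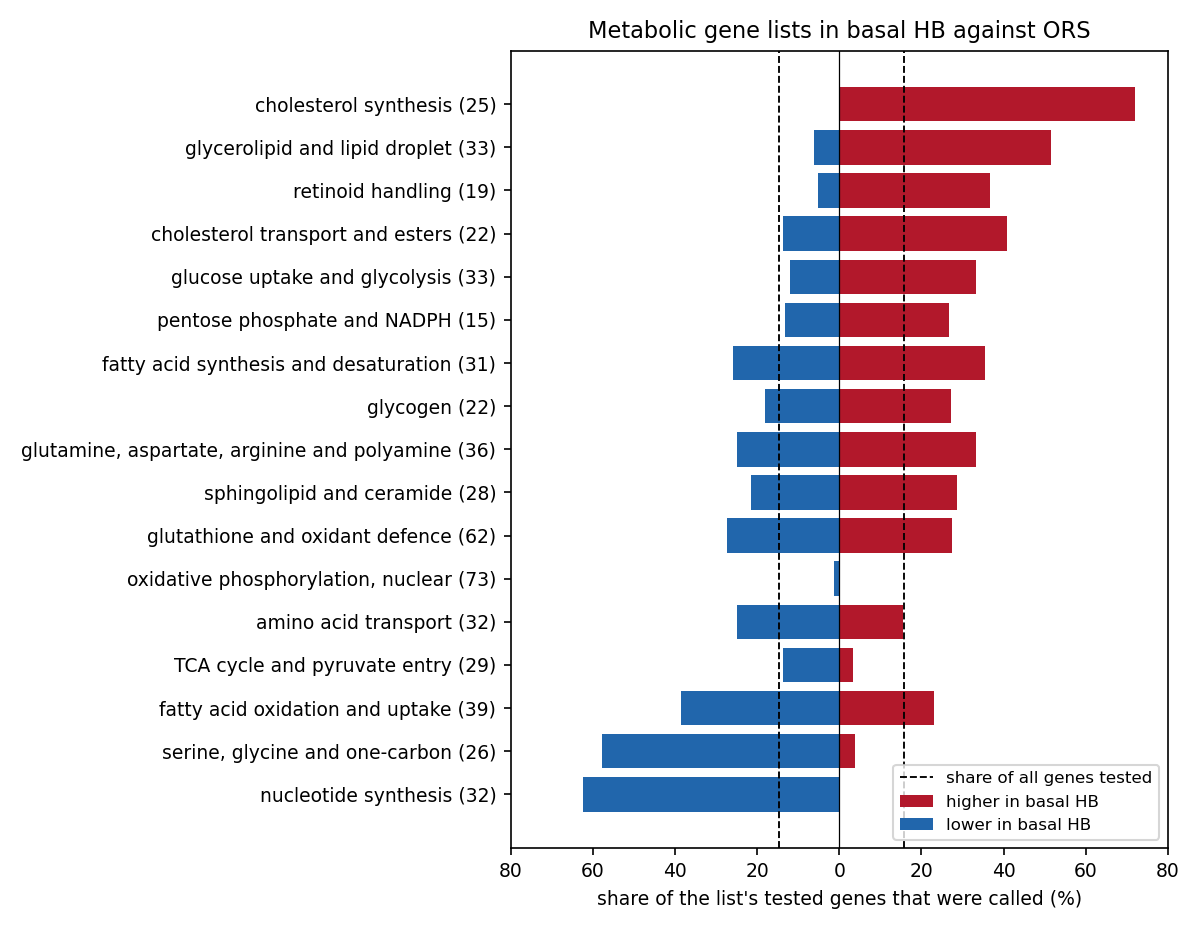
Share of each metabolic list's tested genes (number in brackets) that were called higher in basal HB, as red bars to the right in percent, or lower, as blue bars to the left, with dashed lines at the shares of all genes tested, 15.8% and 14.7%. Cholesterol synthesis reaches 72.0% higher, nucleotide synthesis 62.5% lower, and oxidative phosphorylation stays at 1.37% lower. The lower shares of the TCA cycle, 13.8%, and of glycolysis, 12.1%, lie near that of all genes.

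The epithelial markers describe the sorted cells themselves. Krt5, a keratin of basal layers, stood at 2349 and 3090 CPM in ORS and at 1115 and 1291 CPM in basal HB, and its partner Krt14 was not called, at 286.3 and 308.3 CPM against 229.9 and 260 CPM. Krt15, a keratin of the bulge and sheath, fell by 4.41-fold. The summed level of 14 basal keratinocyte markers was 7996 and 9890 CPM in ORS and 5827 and 6359 CPM in basal HB, so both fractions carried it. Of 10 markers of the hair matrix, the dividing bulb cells, 4 were higher in basal HB (Hoxc13, Lef1, Msx1 and Msx2), and 6 were not called, among them Shh, Edar, Foxn1 and Dlx3. Of 8 sheath and companion layer markers 3 were lower (Lgr6, Barx2 and Sox9) and 3 higher (Krt75, Krt16 and Krt17), 1 was not called and 1 was not tested for its low level. The defining markers therefore did not all follow the labels.

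Genes of the hair medulla and of cornification included some of the most abundant risen genes. They were put into a list of 16 after their values were seen, so its count and sum support nothing, and all 16 were higher in basal HB. Tchh, trichohyalin, a cross-linked protein of the medulla and inner root sheath, stood at 155.8 and 85.05 CPM in ORS and at 3818 and 4193 CPM in basal HB, 33.3-fold higher. Krt75, a keratin of companion layer and medulla, stood at 136.6 and 112.4 CPM against 1060 and 1129 CPM, and Padi3, which converts arginine in trichohyalin to citrulline, at 214.7 and 289.1 CPM against 1046 and 1190 CPM. The summed level of the list was 739.1 and 596 CPM in ORS, 8547 and 9281 CPM in basal HB and 1576 and 1939 CPM in suprabasal HB. Per transcript length, Tchh reached 1308 TPM (transcripts per 1e6) in basal HB against 292.2 TPM for Krt14. Krt14 read far below Krt5 in CPM, and the basal keratinocyte markers together reached 3831 and 3960 TPM in basal HB. Keratins of the hair shaft showed another order. Krt35, its most abundant member, stood at 50.16 and 12.38 CPM in ORS, at 114.5 and 92.64 CPM in basal HB and at 1506 CPM in suprabasal HB.

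Over all genes, the largest rise among named protein-coding genes was that of Slc12a1, the sodium-potassium-chloride cotransporter known from kidney. It stood at 0.0886 and 0.123 CPM in ORS and at 17.05 and 15.53 CPM in basal HB, a log2 change of 7.22 (SE 0.69, edgeR adjusted p = 0.0002). Tm4sf4, a tetraspanin-like membrane protein, Dmp1, a mineral matrix protein known from bone, Col13a1, a membrane collagen, Tchhl1, a relative of trichohyalin, and B3gnt5, a glycosyltransferase of glycolipids, had log2 changes of 6.67, 6.02, 5.49, 5.38 and 5.16. Tchhl1 and B3gnt5 reached 145.5 to 171 CPM in basal HB. Among the largest falls, Dsg1a, a desmosomal cadherin, went from 228 and 209.8 CPM to 41.17 and 35.6 CPM, and Prickle2, of planar cell polarity, fell by 2.38 on the log2 scale. Prss35 also passed, with an edgeR adjusted p of 0.062 without basal HB replicate 1.

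The cell type marker lists, epithelial ones included, showed 117 of 259 genes higher in basal HB (45.2%) and 26 lower (10.0%), against 15.8% and 14.7% of all genes. These lists too were chosen with earlier results of these data known. The lists of non-epithelial cells differed widely in how many members moved and in their summed level. Whether such cells were in the fraction, or whether bulb cells express the genes, cannot be told apart in these bulk libraries.

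Pigment cell genes rose nearly as a whole. Of 20 melanocyte markers 19 were higher, with a median log2 change of 2.69, and Kit was not called. Their summed level was 602.7 and 184.5 CPM in ORS, 4677 and 4271 CPM in basal HB and 20490 and 20980 CPM in suprabasal HB. Gpnmb, a glycoprotein of melanosomes and lysosomes, held most of the sum in basal HB, at 153.7 and 66.68 CPM in ORS and 2877 and 3016 CPM in basal HB, and it was lower in suprabasal HB, at 1280 CPM. Without it the sums were 449 and 117.8 CPM in ORS and 1800 and 1255 CPM in basal HB. The enzymes of pigment synthesis were much higher in suprabasal than in basal HB. Tyr, tyrosinase, stood at 21.18 and 4.84 CPM in ORS, at 87.65 and 58.27 CPM in basal HB and at 987.1 CPM in suprabasal HB, and Dct at 107.7 and 19.97 CPM, 489.3 and 348 CPM and 5352 CPM. For all 20 genes ORS replicate 1 lay above replicate 2, and without basal HB replicate 1 the count of 19 became 9. Kitl, whose receptor Kit marks these cells, rose as given above.

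Promoters of the pigment genes are shown because the members moved together, as matches to the M-box, the element that the pigment cell factor MITF binds. Its core was searched as TCATGTG on both strands in the 250 bases before the start site, in RefSeq promoters of GRCm38.p6. It lay in 3.25% of 32851 promoters. Counting a gene if any of its promoters matched, which is another unit, the core lay in 6 of the 13 melanocyte members that have one. These were Dct, Mc1r, Slc24a5, Trpm1, Tyr and Tyrp1. As above, a match describes the letters and says nothing of binding in these cells. The stretches below are written 5′ to 3′ along the gene, with the core in capitals. They lie at chr7:87493513-87493584 on the minus strand (Tyr), chr4:80834116-80834212 on the plus strand (Tyrp1), chr14:118052341-118052447 on the minus strand (Dct) and chr7:64153643-64153749 on the plus strand (Trpm1). The core ends 16, 41, 145 and 136 bases before the start site in that order.
Tyr: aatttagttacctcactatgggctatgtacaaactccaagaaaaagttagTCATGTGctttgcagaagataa
Tyrp1: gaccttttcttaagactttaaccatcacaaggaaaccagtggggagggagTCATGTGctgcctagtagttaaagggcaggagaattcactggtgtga
Dct: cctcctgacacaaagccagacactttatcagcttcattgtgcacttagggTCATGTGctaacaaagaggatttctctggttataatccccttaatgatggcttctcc
Trpm1: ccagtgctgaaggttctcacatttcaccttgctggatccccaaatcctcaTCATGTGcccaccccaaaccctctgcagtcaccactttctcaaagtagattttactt

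The 4 genes whose promoters are shown rose from ORS to basal HB, by 5.63-fold for Tyr, 6.43-fold for Tyrp1, 6.57-fold for Dct and 9.24-fold for Trpm1. The edgeR adjusted p-values were 0.013, 0.044, 0.013 and 0.0052 in that order. Mitf itself, at 13.23 and 11.33 CPM in ORS and 33.26 and 22.07 CPM in basal HB, rose by 2.25-fold, and its part in these changes was not tested.

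Genes of vessel wall cells rose as well. Of 9 pericyte markers 8 were higher, led by Rgs5, at 28.31 and 9.54 CPM in ORS and 215.2 and 260.8 CPM in basal HB, and Pdgfrb, at 9.67 and 6.70 CPM against 87.82 and 95.69 CPM. Cspg4, the NG2 proteoglycan, was lower, a call lost without basal HB replicate 1. Of 13 dermal sheath and smooth muscle markers 9 were higher. Their sum was 1059 and 1041 CPM in ORS and 1665 and 1879 CPM in basal HB. It was highest in HFSC, at 2682 to 3669 CPM, and 135.9 and 92.36 CPM in suprabasal HB. Myh11, the myosin heavy chain of smooth muscle, stood at 23 and 6.29 CPM in ORS and at 384.9 and 395.7 CPM in basal HB, a log2 change of 4.74 (edgeR adjusted p = 0.00047). Acta2 rose by 2.40-fold, Tagln was not called and Smtn fell by 3.20-fold. A list of 15 genes known from arterial smooth muscle was made after values were seen, so its count and sum support nothing. All 15 were higher, such as Olfr78 and Olfr558 (olfactory-type receptors of vessel wall), Rgs4 and Kcna5. Their sum was 47.4 and 14.64 CPM in ORS and 718.6 and 757.3 CPM in basal HB. It was 27.42 to 40.06 CPM in HFSC and 26.43 and 16.52 CPM in suprabasal HB.

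Genes of skeletal muscle precursors were present at low level. Myog, the factor that starts muscle differentiation (chromosome 1, 134289989 to 134292548), stood at 1.51 and 1.64 CPM in ORS and at 25.96 and 35.89 CPM in basal HB, a log2 change of 4.29 (SE 0.51, edgeR adjusted p = 0.00046). Pax7, the factor of satellite cells, stood at 0.546 and 0.682 CPM against 7.09 and 9.21 CPM, and Myod1 at 0.709 and 0.458 CPM against 6.34 and 10.19 CPM. A list of 18 precursor genes and a companion list of 12 genes of mature fibres were again made after values were seen, so their counts and sums support nothing. All 18 precursor genes were higher, and their sum was 23.54 and 23.3 CPM in ORS and 203.7 and 247.4 CPM in basal HB. Of the 12 fibre genes 5 were higher and 7 not called, and their sum was 18.61 and 13.71 CPM against 41.95 and 45.58 CPM. Without ORS replicate 2 or either basal HB library 3 of the fibre genes were called, and without ORS replicate 1 there were 8.

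Dermal genes gave a mixed picture. Of 20 dermal papilla markers 16 were higher, with a median log2 change of 2.72. Corin, a protease of the papilla, stood at 6.97 and 2.43 CPM in ORS and at 85.58 and 78.03 CPM in basal HB. Sox2, Sox18, Vcan and Alpl were not called, and Sox2 stood at 1.51 and 0.952 CPM in basal HB. Of 20 dermal fibroblast markers 6 were higher and 2 lower, and without ORS replicate 2 there was 1 higher. Col1a1 was not called, at 323.2 and 194.4 CPM against 401.1 and 272.1 CPM, and Dcn fell from 474.4 and 242.9 CPM to 134.8 and 130.5 CPM. Of 10 adipocyte markers 9 were higher (5 without basal HB replicate 1), but Fabp4 made up most of their sum, which without it was 33.55 and 19.83 CPM in ORS and 73.69 and 74.27 CPM in basal HB. Adipoq, which defines fat cells, stood at 1.29 CPM in both basal HB libraries. Of 15 Schwann cell and nerve markers 11 were higher and 3 lower.

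Blood and endothelial markers differed from list to list. Of 18 endothelial markers 4 were higher and 2 lower (1 without ORS replicate 1 or either basal HB library), and the defining genes Pecam1 and Cdh5 were not called, Pecam1 at 9.71 and 8.12 CPM in ORS and 11.51 and 10.08 CPM in basal HB. The endothelial sum was 93.64 and 80.27 CPM against 118 and 112.3 CPM. The share higher was 22.2% of endothelial and 5.26% of macrophage and myeloid markers, against 15.8% of all genes. The share lower was 11.1% and 0% in the same order, against 14.7%. Of 19 macrophage and myeloid markers 1 was higher, S100a8 (2 without ORS replicate 1 or HFSC replicate 2), and the sums overlapped, at 232.1 and 146.7 CPM against 228.2 and 239.2 CPM. Of 10 T and NK cell markers tested 1, Trac, was higher (10%) and 3 lower (30%), Lck, Trbc1 and Trbc2. The sums over the 20 listed did not overlap, at 31.72 and 29.61 CPM against 15.86 and 15.94 CPM. Without Trbc2, the most abundant member, they did overlap, at 17.24 and 12.09 CPM in ORS and 13.44 and 11.82 CPM in basal HB. The call of Trac was lost without ORS replicate 2 or either basal HB library. Of 11 dendritic and Langerhans cell markers tested 3 were higher (27.3%), Cd74, H2-Aa and H2-Ab1, which present antigen. Their list's sum was 42.3 and 37.72 CPM against 85.78 and 97.15 CPM. Cd207, which defines Langerhans cells, stood at or below 0.0297 CPM in basal HB. The vessel wall genes therefore rose in libraries in which Pecam1 and Cdh5 were not called.

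**Figure D5:**
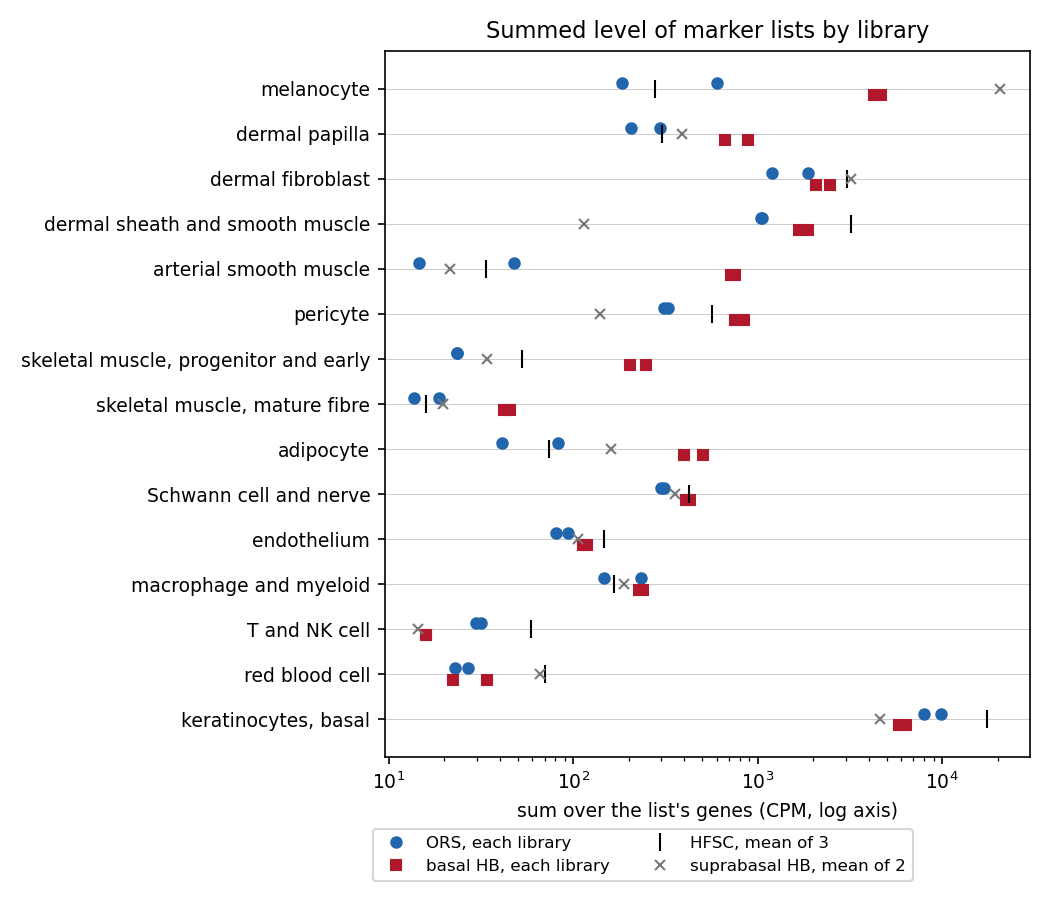
Summed level of each cell type marker list in CPM on a log axis, with blue circles for the 2 ORS libraries, red squares for the 2 basal HB libraries, black ticks for the HFSC mean of 3 libraries and grey crosses for the suprabasal HB mean of 2. The melanocyte and papilla sums are higher in both basal HB libraries, and the macrophage sums of the populations overlap. The arterial smooth muscle and skeletal muscle sums are also higher, but their lists were made after values were seen, so these sums support nothing.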

How the data were processed

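RNA from 9 sorted samples was sequenced as paired-end mRNA libraries. The authors deposited, per sample and gene, RSEM expected counts and TPM (transcripts per 1e6); the submitters' processing notes name Bowtie2 2.2.9, RSEM 1.2.30 and mm10, without further settings. Expected counts were rounded, filtered with filterByExpr and scaled by TMM, and all 9 libraries were fitted together with edgeR 4.0.16 in R 4.3.3 (quasi-likelihood F-test, 5 residual degrees of freedom). Basal HB minus ORS was tested with Benjamini-Hochberg adjustment over 20491 genes at 0.05. Fold sizes come from this fit. Levels are CPM on TMM-scaled library sizes, with no pseudocount. Gene positions are those of GENCODE M21. Members and gene lists were chosen with earlier results of these data known. Named genes are, per theme and direction, the 8 largest changes among called genes whose libraries do not overlap and whose higher mean is at least 2 CPM, and 15 over all genes at 5 CPM. Other genes were named as examples after their values were seen. Alternatives used limma 3.58.1 on log2(TPM + 1) and log2(TPM + 0.1), DESeq2 1.42.0, other scaling and filters, and left-out libraries. The code was tested on simulated data. Some genes are not reported here.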

Additional observations from a re-analysis of the deposited data

How the results depend on the processing

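No called gene named here changed sign under the alternatives run, but for some lists the balance of higher and lower genes turned over. Among them were fatty acid oxidation (15 lower and 9 higher as reported) and dermal fibroblast markers (6 higher and 2 lower as reported). Their balance turned over when some single libraries were left out. Genes higher in basal HB numbered 3241 and ranged from 3048 to 3600 over the other settings, and genes lower numbered 3004 and ranged from 2027 (limma on log2(TPM + 0.1)) to 3174. Leaving out 1 library gave 2095 (without basal HB replicate 1) to 3557 higher and 1330 (without basal HB replicate 1) to 2976 lower, with 1940 lower without ORS replicate 2 and 1823 without basal HB replicate 2. The fallen metabolic genes ranged from 65 to 123, the fallen signals from 22 to 49 and the fallen transcription factors from 63 to 107, each lowest without basal HB replicate 1. Where a population is left with 1 library, it is assumed to vary like the others. Of 67 named genes, 63 kept their call in every alternative, and 4 did not, among them Tnc, Cps1 and Prss35. Shared replicate numbers do not establish pairing: deviations of the 2 pairs correlated at 0.097, and a fit with a replicate block gave 3348 higher and 2514 lower genes and changed no named call. With 2 libraries per population the spread is poorly known, and levels near 0.0335 to 0.0446 CPM cannot be told from 0.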

Other observations

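Adhesion genes changed in both directions. The share higher was 40% of integrin, 54.5% of laminin, 43.8% of desmosomal and 40.5% of collagen genes, against 15.8% of all genes. The share lower was 12%, 18.2%, 25% and 26.2% in the same order, against 14.7%, so for integrins and laminins it was near that of all genes. Of 25 integrin genes 10 were higher in basal HB and 3 lower. Itga4, which binds fibronectin and VCAM-1, stood at 8.87 and 5.34 CPM in ORS and at 75.83 and 66.15 CPM in basal HB, and Itgb6, the epithelial partner of integrin αv, at 20.99 and 16.41 CPM against 3.70 and 3.88 CPM. The libraries of the populations did not overlap for either gene, which also occurs in genes not called. Of 11 laminin genes 6 were higher, led by Lama2 at 8.62 and 3.72 CPM against 84.47 and 61.63 CPM, and 2 were lower (1 without ORS replicate 1 or either basal HB library), among them Lamb1. Of 16 desmosomal genes 7 were higher and 4 lower (2 without basal HB replicate 2). The desmogleins diverged: Dsg3 rose from 71.04 and 65.24 CPM to 250.3 and 239.4 CPM, whereas Dsg1a fell by 2.51 on the log2 scale. Of 42 collagen genes 17 were higher and 11 lower, and without basal HB replicate 1 these were 9 and 4. The vessel wall, papilla and Schwann cell markers moved with Itga4, Itga8 and Lama2, and their part in these changes was not tested.

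Hedgehog genes were listed after their values were seen, so the list's counts support nothing. Of 12 receptors, effectors and targets 3 were higher and 4 lower. Ptch1, the receptor and a target of the pathway, stood at 520.6 and 515.5 CPM in ORS and at 228.4 and 203.8 CPM in basal HB, and Gli1, a target, at 244.4 and 258.9 CPM against 97.28 and 95.97 CPM. Both fell, by 2.40-fold and 2.61-fold, while Shh, the ligand, was not called at 36.96 and 13.17 CPM against 42.48 and 37.92 CPM.

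Genes of melanosome transport and of lysosome-related pigment handling, also listed after values were seen, had 9 of 10 higher. Mreg, which acts in melanosome transfer, stood at 53.39 and 48.47 CPM in ORS, at 293.8 and 325.7 CPM in basal HB and at 97.58 CPM in suprabasal HB. Syt7, a calcium sensor of lysosome exocytosis, stood at 16.8 and 20.85 CPM, 147.8 and 155.8 CPM and 42.46 CPM in the same order. Both were higher in basal than in suprabasal HB, whereas Mlph, Rab27a and Atp6v0d2 of the same list had the opposite order, with Mlph at 40.13 and 33.63 CPM in basal HB and a mean of 214.6 CPM in suprabasal HB.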
